A study of Mus musculus with 18 samples.

Results

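DNA replication genes encode the proteins that open, load and copy origins of replication, and 43 of them were followed here through LSK cells, the Lineage-negative, cKit+, Sca1+ bone marrow cells in which hematopoietic stem cells and early progenitors lie. The genes were listed by name as known parts of the replication machinery, at a time when earlier results of these data were known, and all 43, which the tables list in capitals (MCM2, CDC6, CCNE1 and so on), were found among the 25629 rows of each of the 2 deposited tables. All 43 also reached the mean of 1 FPKM required for testing in both tables.

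The 18 libraries came from C57Bl/6 mice and formed 6 groups of 3. Fresh control and fresh irradiated libraries each held RNA of LSK cells pooled from 3 mice and processed directly after sorting. Each of the 12 cultured libraries began with 200 LSK cells of 1 mouse, grown for 6 days with the mouse cytokine mSCF and the human ones hFlt3L, hIL-6 and hIL-11, then sorted again as LSK cells; so replicates are separate mice or pools, and the cultured groups were control, irradiated, control with DL1 or irradiated with DL1. Mice of the irradiated groups were given 2.5 Gy from a Cs-137 source and at least 9 weeks to recover; control mice are labelled normal. The labels give no age of the mice, leave DL1, a common short name of the Notch ligand Delta-like 1, unexplained and are silent on how cells met it. For controls the source name reads as irradiated cells; titles and conditions call them control or normal and were followed. The LSK markers Kit, Ly6a and Cd34 had group means of 34.3 FPKM or more in every group, while the stem cell marker Slamf1 had means of 0.923 FPKM in cultured control and 0.742 FPKM in cultured irradiated cells. The sums of 10 macrophage and 10 neutrophil marker genes reached 1530 and 10419 FPKM in single cultured libraries. Neutrophil marker genes were also high in fresh LSK cells, with sums of 2729 to 5135 FPKM in control and 2649 to 4518 FPKM in irradiated pools. The macrophage sums there were 89.5 to 133 and 99.1 to 212 FPKM.

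Cells license origins in G1 by loading the MCM helicase, 6 related ring subunits (Mcm2 to Mcm7), with the help of Cdc6 and Cdt1. In S phase the kinase Cdc7 with its activator Dbf4, together with cyclin E kinase, turns the helicase on, the GINS complex joins it, and polymerases, the sliding clamp PCNA and its loader RFC copy the strands. Many of these genes are classic targets of E2F transcription factors, which Rb family proteins hold back in resting cells. Long-term hematopoietic stem cells are mostly quiescent in marrow, and cytokines drive LSK cells into division in culture. In bulk RNA, fewer cells in S phase and less RNA per cell cannot be told apart.

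Promoter letters are shown first because many genes of this class are classic E2F targets and the letters were not used to choose the genes. RefSeq promoter windows on GRCm38.p6 run from 250 bases before to 50 bases after each annotated start and were present for 35 of the 43 genes. The E2F-type letters TTTGGCGC, TTTGCCGC, TTTCGCGC and TTTCCCGC were searched on both strands. They occurred in 13 of the 35 genes (37.1%), in 704 of all 27025 genes with a window (2.6%) and in 1 of 20 mitosis genes (5.0%). A gene with more than 1 window was counted once, if any of them matched. Of the 13 genes, 8 had the letters before the start, and the stretches of 7 of them are printed on the strand of the gene, with the E2F-type letters in capitals; Rfc3, not printed, had 1 match before its start and 1 at it. In Mcm5 and Mcm6 a forward and a reverse match overlap and form 1 longer run of capitals.
Cdc6 chr11:98907983-98908050 (+ strand): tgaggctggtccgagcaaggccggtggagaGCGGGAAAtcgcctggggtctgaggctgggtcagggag
Gins3 chr8:95633488-95633555 (+ strand): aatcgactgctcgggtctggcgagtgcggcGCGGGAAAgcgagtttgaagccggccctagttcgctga
Mcm5 chr8:75109326-75109397 (+ strand): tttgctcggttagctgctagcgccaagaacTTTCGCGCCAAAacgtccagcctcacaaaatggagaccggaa
Mcm6 chr1:128359715-128359845 (- strand): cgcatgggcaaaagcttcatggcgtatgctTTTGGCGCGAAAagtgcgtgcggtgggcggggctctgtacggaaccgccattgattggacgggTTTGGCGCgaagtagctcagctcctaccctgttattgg
Mcm7 chr5:138172011-138172078 (- strand): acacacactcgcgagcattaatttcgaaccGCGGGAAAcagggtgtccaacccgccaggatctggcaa
Pola1 chrX:93632256-93632323 (- strand): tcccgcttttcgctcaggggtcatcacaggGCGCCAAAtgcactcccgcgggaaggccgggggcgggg
Uhrf1 chr17:56304098-56304165 (+ strand): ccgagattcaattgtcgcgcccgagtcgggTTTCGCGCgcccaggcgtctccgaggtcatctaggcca

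Mcm6 thus carried 3 matches, at 110, 106 and 47 bases before its start, and Mcm3, Mcm5, Mcm7 and Rfc3 carried 2 each. The 5 other genes, Cdt1, Lig1, Mcm3, Pold1 and Pole2, had theirs after the start. Dbf4, Ccne1, Rrm2, Mcm2 and Pcna had none of these letters in the window, which says only that they are not there. The CCAAT box, CCAAT on either strand, was in 57.1% of the members with a window, 85.0% of such mitosis genes and 41.1% of all such genes. TTTGAA or TTCGAA, the letters of the cell cycle homology region, were in 22.9%, 80.0% and 21.7%. A match is a description of letters, not evidence of binding.

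**Figure D1:**
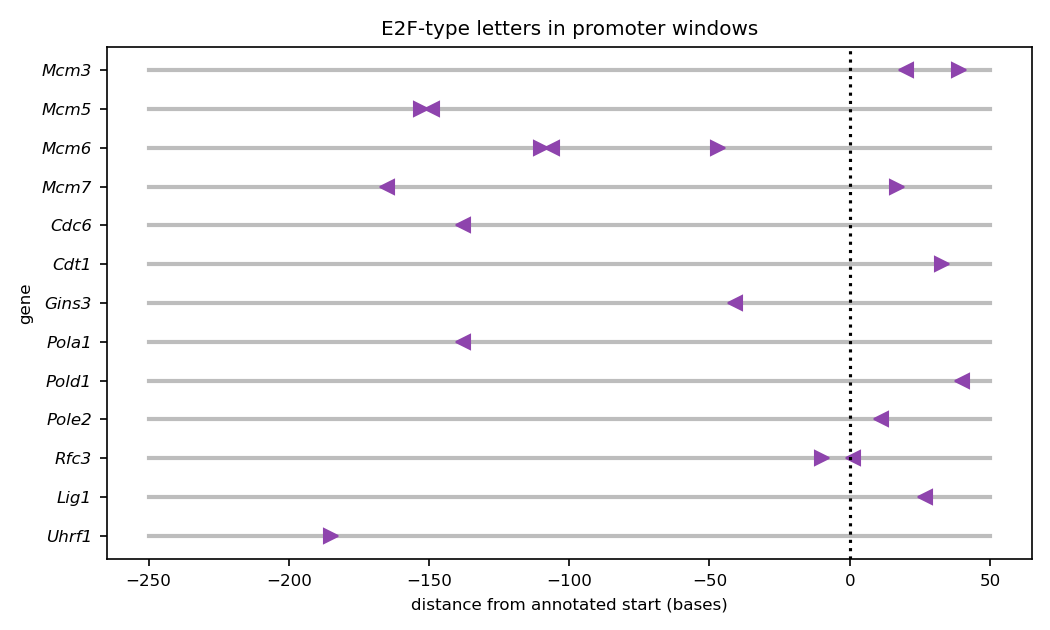
Position of E2F-type letters in the promoter windows of the 13 replication genes that hold any, as distance in bases from the annotated start (dotted line). Triangles point right for a match on the strand of the gene and left for the other strand; grey bars are the searched windows, and Mcm6 has the most matches, 3.

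Levels are given in FPKM (fragment counts made relative to transcript length and library size), for replicates 1, 2 and 3 in that order or as mean ± SD with n = 3 libraries. Each change is a limma estimate of log2 fold, ± its standard error, computed on log2(FPKM + 1) values, with p adjusted over all genes tested and a threshold of 0.05. Cultured libraries had relative depths between 0.756 and 1.09 of the first control culture, except irradiated replicate 2 with DL1 at 0.488; fresh libraries lay between 0.645 and 1 of their first control. FPKM do not carry read counts, so no counting interval can be given.

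In fresh control LSK cells Pcna, the sliding clamp, was the most abundant member at 227 ± 11.6 FPKM, followed by the helicase subunits Mcm6 at 111 ± 6.68 and Mcm7 at 80.5 ± 7.81 FPKM. At the other end stood Ccne1, cyclin E1, at 2.92 ± 0.936 and the GINS subunit Gins3 at 4.94 ± 0.328 FPKM. The same 3 genes led in cultured control cells, with Pcna at 309 ± 18.02, Mcm6 at 171 ± 11.4 and Mcm7 at 166 ± 5.93 FPKM, the last 2 within each other's spread. The summed FPKM of all 43 genes lay between 1493 and 1684 in fresh control and between 2510 and 2696 in cultured control libraries. The tables were normalized separately, so these sums were not tested against each other.

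Each gene's share of the 43-gene sum is a ratio within a library, so it does not depend on the scaling between libraries. Fresh and cultured control libraries also differ in starting material and in the table they come from. A difference in share therefore cannot be assigned to culture itself. For 16 genes the shares were higher in culture and for 18 lower, with no overlap of the 3 libraries on each side, and 9 overlapped. No test was made. The same count was not made over all genes, so it is not read as a feature of these genes. Ccne1 had the largest relative gain, from 0.184 ± 0.0492% to 0.806 ± 0.0436% of the sum, 4.38 times its fresh share. Rpa1, the large subunit of the single-strand binding protein RPA, followed with 2.81 times, the flap endonuclease Fen1 with 2.39 times and Rrm2, the small subunit of ribonucleotide reductase, with 2.23 times. The GINS subunits Gins2 and Gins4 (0.417 and 0.484 times), thymidylate synthase Tyms (0.492 times) and the primase subunit Prim1 (0.516 times) lost the most. Within RPA, Rpa1 gained share while Rpa2 (0.587 times) and Rpa3 (0.555 times) lost it. Ribonucleotide reductase also differed within itself, with 1.24 times for the large subunit Rrm1 against 2.23 times for Rrm2.

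In fresh cells irradiated at least 9 weeks before, none of the 43 genes differed from controls by the adjusted threshold, and 2, Mcm10 and Tk1, both higher, had an unadjusted p under 0.05 (4.1% of all genes on that side). Among all 12890 genes tested, 0.0698% rose and 0.031% fell. The median change of the members was 0.05 (all genes 0.01), and 32 of 43 were above 0 (27 with ribosomal RNA-like rows removed), against 52.8% of all genes. With 1 library left out this count ran from 24, without control replicate 2, to 37, without control replicate 1. The median without control replicate 2 was 0.02, and that pool was the lowest fresh library for 20 of the 43 genes. Mcm10, which helps to activate the loaded helicase, measured 8.85, 8.90 and 8.68 FPKM in controls and 10.1, 11.1 and 9.88 FPKM after irradiation. All 3 irradiated pools lay above all 3 control pools (0.21 ± 0.08, adjusted p = 0.676). Thymidine kinase Tk1, which salvages thymidine, measured 37.8, 31.1 and 31.3 FPKM in controls and 38.2, 37.8 and 40.3 FPKM after irradiation (0.22 ± 0.09, adjusted p = 0.709). Its lowest irradiated pool and its highest control pool were almost level. The GINS subunit Gins1 (0.17 ± 0.08, adjusted p = 0.762) and Pold2, an accessory subunit of polymerase delta (0.20 ± 0.10, adjusted p = 0.787), were next by p. These were the 4 members whose fresh groups did not overlap with the irradiated pools higher, among 7.42% of all genes, and none was lower without overlap.

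Mcm2 measured 49.01, 37.5 and 38.6 FPKM in fresh controls and 45.6, 39.04 and 45.4 FPKM in fresh irradiated pools, and Pcna 235, 214 and 233 and 218, 216 and 229.7 FPKM. Both genes overlapped between the groups. The licensing factors were as close: Cdc6 measured 10.8, 10.3 and 9.51 and 10.8, 10.9 and 11.2 FPKM, and Cdt1 30.9, 26.7 and 26.6 and 31.4, 27.7 and 28.2 FPKM. Ccne1 measured 3.80, 1.94 and 3.01 and 3.47, 4.38 and 3.29 FPKM, with the widest relative spread of any of the members named here. Ccne2, the other cyclin E, measured 7.84, 6.93 and 7.24 and 9.12, 7.29 and 7.20 FPKM. Rrm2 measured 45.6, 40.2 and 35.96 and 43.8, 42.7 and 38.1 FPKM, and Uhrf1, which reads newly copied DNA for maintenance methylation, 40.3, 36.4 and 39.4 and 45.98, 37.1 and 43.1 FPKM. In these 6 genes, too, the fresh groups overlapped.

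**Figure D2:**
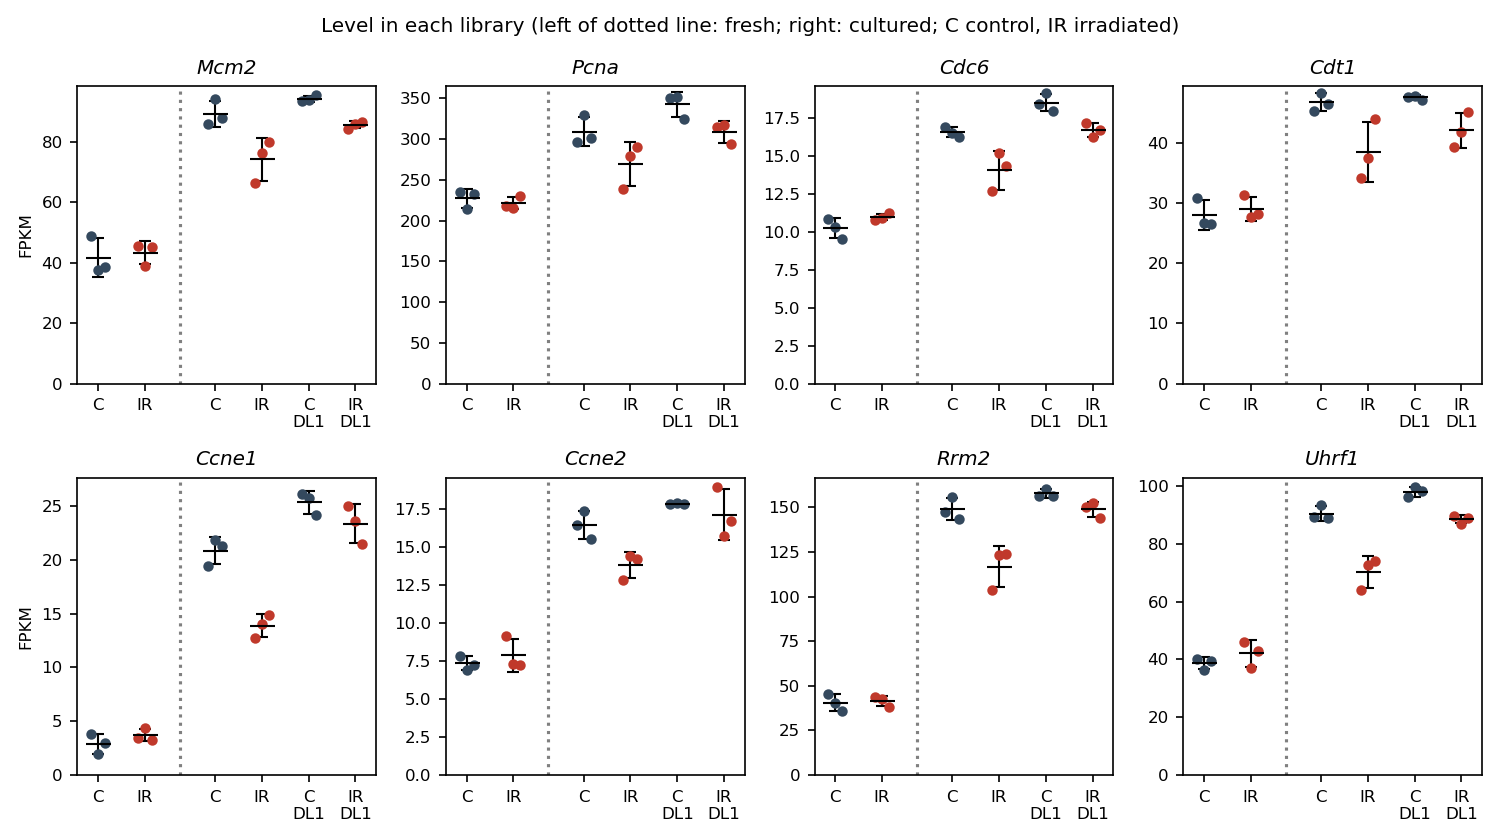
FPKM of 8 replication genes in each library (points), with the group mean and SD (black bars, n = 3), for fresh cells left and cultured cells right of the dotted line; C is control and IR irradiated. In culture without DL1 the irradiated points of Ccne1, from 12.7 to 14.9 FPKM, lie below the controls, from 19.4 to 21.8 FPKM, and with DL1 both groups lie at 21.4 FPKM or more.

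In cultures without DL1, 30 of the 43 genes fell after irradiation and none rose, against 15.9% of all 12011 genes tested that fell and 13.8% that rose. All 43 changes were below 0 (55.8% of all genes), with a median of -0.24, or -15.6% (all genes -0.03), and a range from -0.55 to -0.04. For 32 genes the irradiated libraries lay below all controls, as for 20.6% of all genes. Irradiated replicate 1 was the lowest of the 12 cultured libraries for 42 of the 43 genes. The summed FPKM of the 43 genes was 1959, 2232 and 2366 in irradiated replicates 1, 2 and 3 and between 2510 and 2696 in controls.

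All 6 subunits of the MCM helicase fell, by similar amounts, from -0.23 for Mcm6 to -0.28 for Mcm4. Mcm2 measured 85.95, 94.3 and 87.9 FPKM in control and 66.3, 76.4 and 80.02 FPKM in irradiated cultures, with no overlap (-0.27 ± 0.06, adjusted p = 0.00845). Mcm6 was the one subunit whose groups overlapped, at 175, 179 and 158 against 129, 145 and 162 FPKM. Of the 9 genes of licensing and firing, 5 fell. Dbf4, the activator of the Cdc7 kinase, changed most among them, from 39.8, 39.3 and 37.4 FPKM in controls to 25.6, 27.99 and 33.6 FPKM after irradiation (-0.41 ± 0.08, adjusted p = 0.00281). Its partner Cdc7 did not pass, at 13.9, 13.9 and 13.2 against 10.1, 12.9 and 13.97 FPKM (-0.15 ± 0.09, adjusted p = 0.245), and its groups overlapped. Cdc6 measured 16.9, 16.5 and 16.3 against 12.7, 15.2 and 14.3 FPKM (-0.23 ± 0.06, adjusted p = 0.0159). Cdt1 measured 45.5, 48.4 and 46.6 against 34.2, 37.6 and 44.02 FPKM (-0.28 ± 0.08, adjusted p = 0.0192). Both licensing factors were lower in every irradiated library than in every control. Mcm10 and Gins2 fell by 0.30 and 0.27, Gins1 and Gins3 missed the threshold (adjusted p = 0.0519 and 0.0509), and Gins4 stayed at 29.1 ± 1.46 against 28.1 ± 0.979 FPKM (-0.04 ± 0.05, adjusted p = 0.49).

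Of the 8 polymerase and primase genes 6 fell, and the delta subunits Pold1 (-0.13 ± 0.07, adjusted p = 0.158) and Pold2 (-0.18 ± 0.08, adjusted p = 0.103) did not pass. The primase subunit Prim2 had one of the smallest falls that passed, from 25.4, 26.5 and 24.3 to 20.6, 22.3 and 22.1 FPKM (-0.22 ± 0.05, adjusted p = 0.00516). Pola2, a subunit of polymerase alpha, was close to it, from 38.6, 40.8 and 40.6 to 30.3, 35.9 and 36.6 FPKM (-0.22 ± 0.06, adjusted p = 0.019). Both genes kept irradiated and control libraries apart. Among the 8 genes of the clamp, its loader and Okazaki fragment joining, only DNA ligase Lig1 (-0.32) and the loader subunits Rfc3 and Rfc4 passed. Rfc3 measured 24.8, 29.3 and 26.1 against 19.97, 23.8 and 24.7 FPKM (-0.22 ± 0.07, adjusted p = 0.0429). Pcna missed the threshold although its groups did not overlap, at 296, 329.9 and 302 against 239, 279 and 290.0 FPKM (-0.20 ± 0.07, adjusted p = 0.0527).

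All 4 nucleotide supply genes fell. Rrm2 measured 148, 156 and 144 FPKM in control and 104, 123 and 124 FPKM in irradiated cultures (-0.35 ± 0.06, adjusted p = 0.00254). Tyms had the smallest fall of all that passed, from 20.3, 20.7 and 20.2 to 15.8, 17.8 and 19.6 FPKM (-0.20 ± 0.06, adjusted p = 0.0372); the table also lists its pseudogene, so its reads may be split. Rrm2 and Tyms both kept the groups apart. All 3 chromatin genes fell, namely the histone chaperone subunits Chaf1a and Chaf1b and Uhrf1. Uhrf1 went from 89.3, 93.4 and 88.9 FPKM to 63.98, 72.9 and 74.1 FPKM (-0.36 ± 0.05, adjusted p = 0.000848). Ccne1 fell the most of all 43 genes, from 19.4, 21.8 and 21.3 FPKM to 12.7, 13.99 and 14.9 FPKM (-0.55 ± 0.07, adjusted p = 0.00042). The irradiated libraries stood well clear of the controls. Ccne2 fell by less, from 16.4, 17.4 and 15.5 to 12.8, 14.4 and 14.2 FPKM (-0.24 ± 0.07, adjusted p = 0.0228). Of the 3 RPA genes Rpa1 fell (-0.22 ± 0.05, adjusted p = 0.0107), while Rpa2 and Rpa3 did not pass.

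The count of 30 rests partly on single libraries, with 14 genes passing without control replicate 2 and 20, at a median of -0.17, without irradiated replicate 1. A fit of only these 2 groups called 10 genes lower, against 5.57% of all genes. The main fit uses 1 estimate of spread per gene for all cultured groups, yet their spread was unequal. The SD of the 43-gene sum was 208 FPKM in irradiated and 97.7 FPKM in control cultures. With DL1 it was 12.4 FPKM in irradiated and 16.8 FPKM in control cultures. Dbf4, Pole2, Lig1, Rpa1, Rrm1, Rrm2, Tk1, Chaf1a, Uhrf1 and Ccne1 passed under all 15 alternatives, and all 43 changes were below 0 in each of them; the other 20 of the 30 missed the threshold in at least 1. Among these, Cdc6, Cdt1 and Ccne2 did so in the fit of only 2 groups, and Cdc6 also without control replicate 1 or 2, Cdt1 without irradiated replicate 1 or 2 or control replicate 2, and Ccne2 without irradiated replicate 1 or control replicate 1 or 2. Prim1 passed in 5 of the 15 alternatives, Rfc3 and Tyms in 7 each, and Mcm6 and Mcm7 in 9 each.

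**Figure D3:**
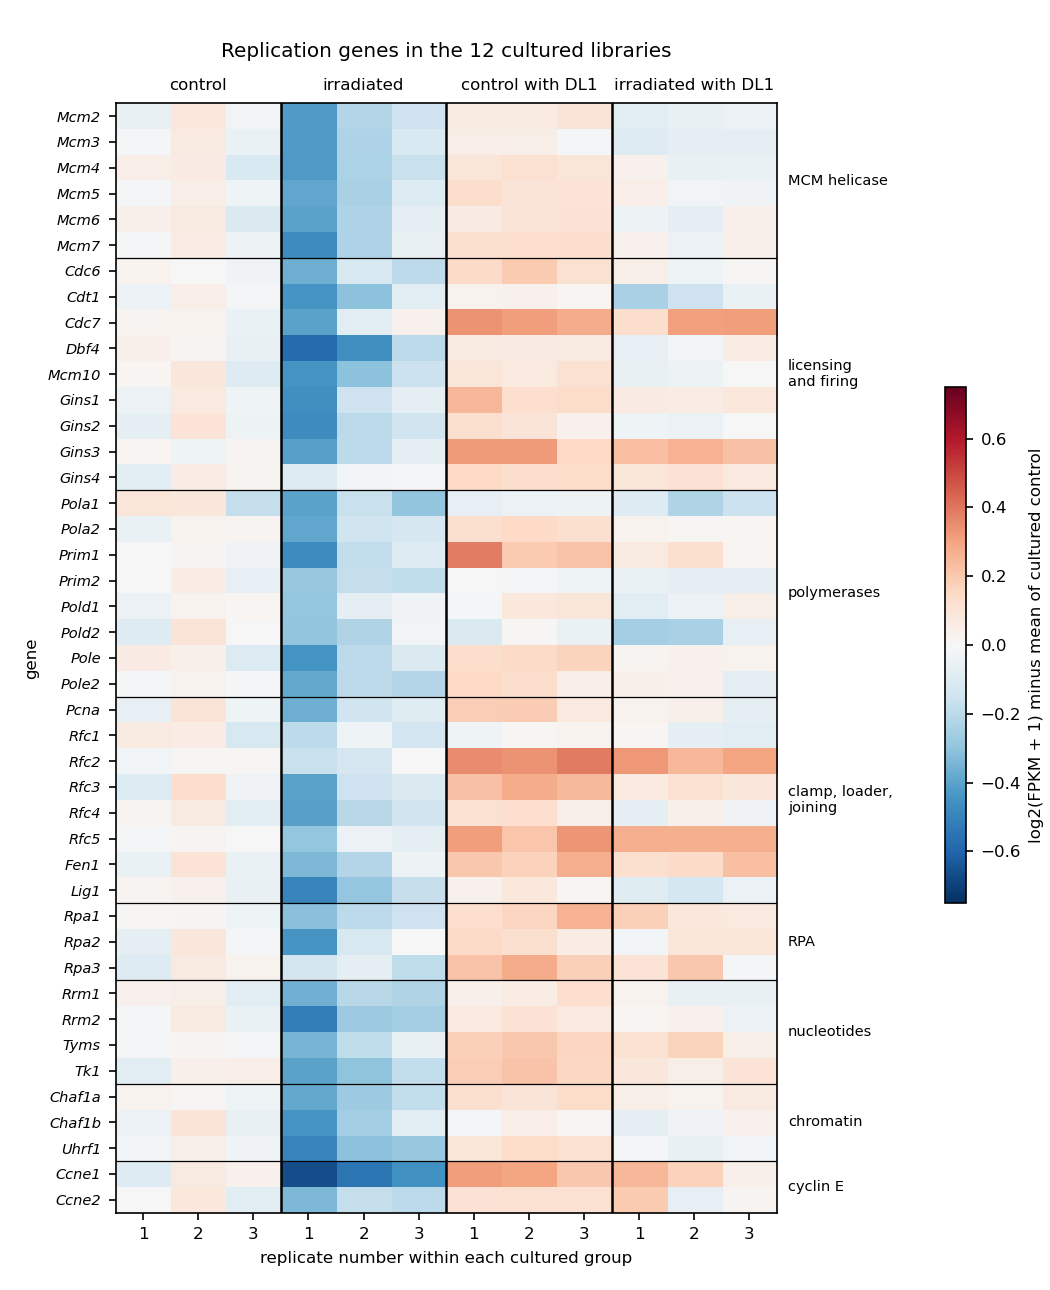
Level of the 43 replication genes in the 12 cultured libraries, as log2(FPKM + 1) minus the mean of the 3 cultured controls (color; blue lower, red higher), with genes in rows by role and replicates in columns. The column of irradiated replicate 1 is blue in every row, and most rows are red in control with DL1.

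As shares of the 43-gene sum, the MCM helicase held 29.7 ± 0.398% in control and 29.5 ± 0.619% in irradiated cultures, polymerases and primase 9.37 ± 0.0732% and 9.53 ± 0.0864%, and nucleotide supply 13.04 ± 0.0835% and 12.5 ± 0.285%. Licensing and firing genes held 9.37 ± 0.0642% and 9.27 ± 0.156%. The clamp, loader and joining genes had a larger share after irradiation, 25.1 ± 0.252% in control and 26 ± 0.165% in irradiated cultures, as had RPA with 5.99 ± 0.112% and 6.24 ± 0.156%. Chromatin copying genes had a smaller one, 6.04 ± 0.0535% and 5.7 ± 0.0651%. Cyclin E lost share, from 1.44 ± 0.0329% to 1.27 ± 0.0379%. With DL1 it held 1.53 ± 0.0303% in control and 1.55 ± 0.11% in irradiated cultures. No share was tested.

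Genes used as markers of other cell types also changed in these LSK-sorted cells. Among all genes tested, 13.8% rose and 15.9% fell after irradiation without DL1. All 10 macrophage markers rose after irradiation without DL1, and their summed level was 1530, 1266 and 958 FPKM in irradiated replicates 1, 2 and 3, against 401 to 638 FPKM in controls, 155 to 178 in control with DL1 and 236 to 245 in irradiated with DL1. Of 10 neutrophil markers 9 rose, with sums of 7932 to 10419 FPKM against 4375 to 5023 in controls, 3181 to 3338 in control with DL1 and 4889 to 6171 in irradiated with DL1. None of these markers was at 0 in all 3 libraries of a group. All 4 of the 6 megakaryocyte markers that could be tested rose as well, with sums over the 6 of 198 to 276 FPKM in irradiated cultures against 80.4 to 108 in controls. Of 8 mast cell and basophil markers 4 rose, with sums of 149 to 179 against 93.9 to 107 FPKM. The library with the lowest replication gene sum, irradiated replicate 1, had the highest macrophage sum. Whether other cells or LSK cells themselves carried this RNA was not tested, nor was its part in the result. The 5 LSK markers (Kit, Ly6a, Cd34, Flt3 and Slamf1) changed as well. After irradiation 2 of them fell without DL1 and 1 with DL1 (0.649% of all genes), and none rose. DL1 raised 2 of them in control (14% of all genes) and 3 in irradiated cultures (24.4%) and lowered none.

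In cultures with DL1, irradiation left all 43 changes below 0 (41 with median-ratio scaling), as for 55.4% of all genes, but none passed the adjusted threshold, against 0.649% of all genes that fell and 2.51% that rose. The median was -0.11 (all genes -0.02), and 5 genes, Uhrf1, Prim1, Cdc6, Cdt1 and Mcm2, had an unadjusted p under 0.05 (8.06% of all genes on that side). For 29 genes the irradiated libraries lay below all controls with DL1, against 17.5% of all genes. Uhrf1 measured 96.2, 99.8 and 98.2 FPKM in control and 89.8, 87.1 and 89.1 FPKM in irradiated cultures (-0.14 ± 0.05, adjusted p = 0.171). Prim1 measured 44.4, 38.8 and 39.3 and 35.3, 36.8 and 34.04 FPKM (-0.20 ± 0.08, adjusted p = 0.228). In both genes the groups did not overlap. Cdc6 measured 18.4, 19.1 and 17.98 and 17.1, 16.2 and 16.7 FPKM (-0.14 ± 0.06, adjusted p = 0.231), and Cdt1 47.7, 47.95 and 47.3 and 39.4, 41.9 and 45.3 FPKM (-0.17 ± 0.08, adjusted p = 0.254). Mcm2 measured 93.6, 93.8 and 95.5 and 84.4, 86.01 and 86.6 FPKM (-0.14 ± 0.06, adjusted p = 0.26). These licensing and helicase genes were also lower in every irradiated library. The 2 cyclin E genes overlapped between the groups, as did Rpa1, Rpa2 and Rpa3, and Pcna went from 351, 352 and 325 to 315, 318 and 294 FPKM without overlap. A fit of only these 2 groups called 3 genes lower, Mcm2, Rfc3 and Uhrf1, against 2.9% of all genes. With DL1, too, 4 of 10 macrophage and 8 of 10 neutrophil markers rose after irradiation, and their part was not tested.

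**Figure D4:**
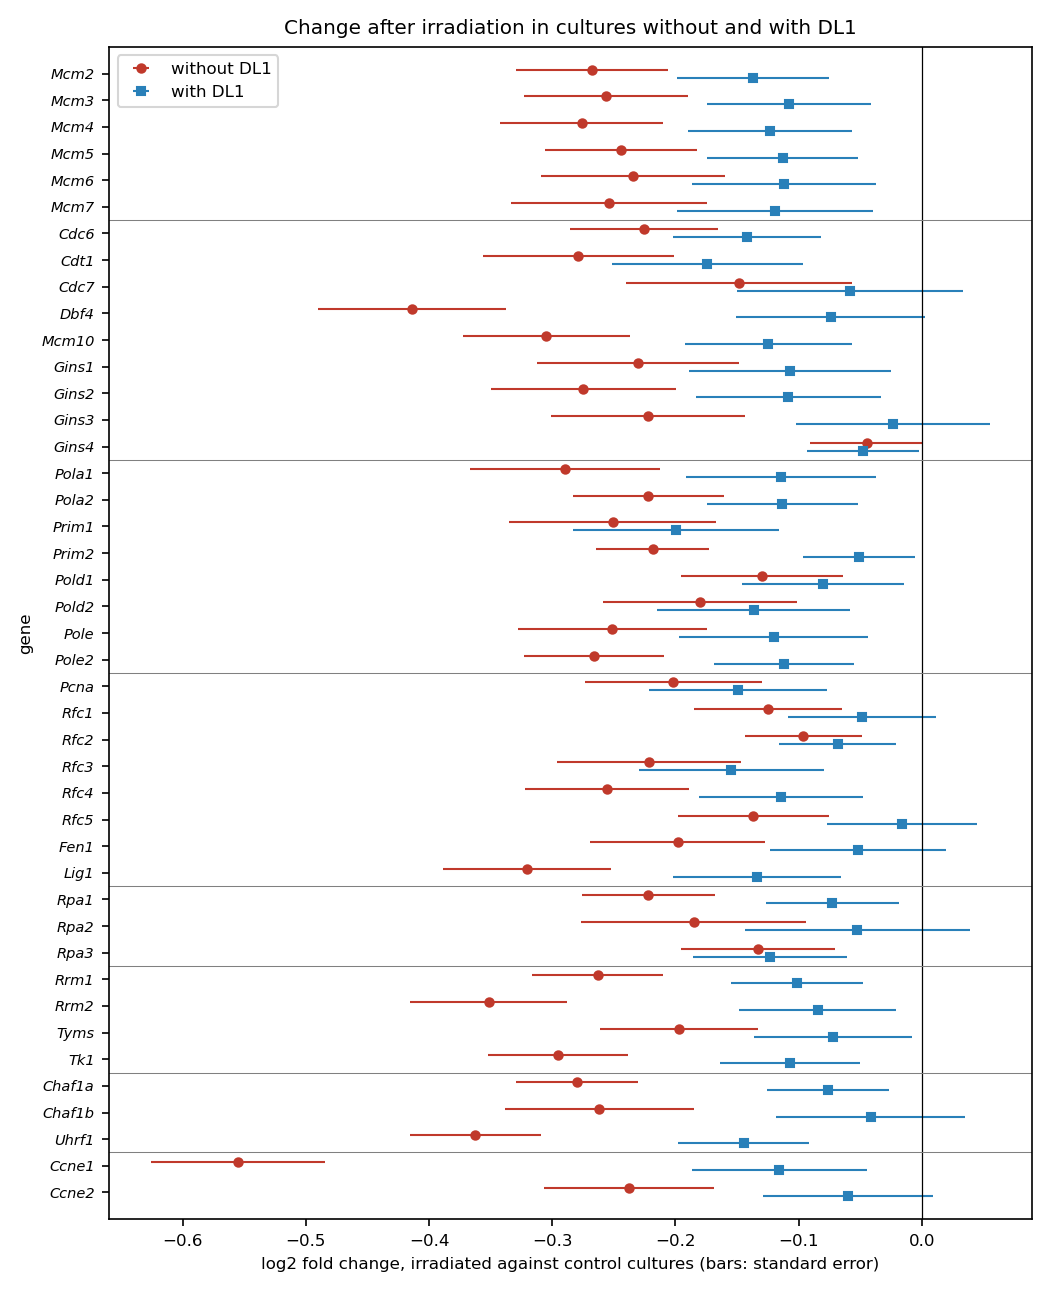
Log2 fold change of each replication gene between irradiated and control cultures (points; bars are the standard error), without DL1 (red circles) and with DL1 (blue squares), in order of role. All points lie below 0, and the largest distance between the pair of points is that of Ccne1, -0.55 without and -0.12 with DL1.

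Whether irradiation acted differently in the presence of DL1 was tested as an interaction. No gene passed, against 0.025% of all genes above and 0.05% below 0 that did, although 42 of 43 differences were above 0 (54.6% of all genes) and 7 had an unadjusted p under 0.05 (5.29% of all genes on that side). The median difference was 0.13 (all genes 0.02). Ccne1 had the largest difference (0.44 ± 0.10, adjusted p = 0.151), then Dbf4 (0.34 ± 0.11, adjusted p = 0.307) and Rrm2 (0.27 ± 0.09, adjusted p = 0.34). Uhrf1 was next by p (0.22 ± 0.08, adjusted p = 0.34). Without irradiated replicate 3, Ccne1 and Dbf4 passed, with adjusted p of 0.0398 and 0.0245. Without irradiated replicate 1 the median difference was 0.06 and none passed.

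In control cultures DL1 raised 12 of the 43 genes and lowered none, against 14% of all genes that rose and 12.3% that fell. The median was 0.11 (all genes 0.04), 40 were above 0 (59.3% of all genes; 36 of 43 with median-ratio scaling or with ribosomal RNA-like rows removed), and 26 were higher without overlap (29.4%). The clamp loader led: Rfc2 went from 74.5, 75.8 and 76.03 FPKM to 96.7, 95.4 and 99.1 FPKM (0.36 ± 0.05, adjusted p = 0.000144). Rfc5 went from 44.8, 45.9 and 45.1 to 56.5, 52.4 and 57.3 FPKM (0.28 ± 0.06, adjusted p = 0.00436). Rfc3 also rose, while Rfc1 (0.00 ± 0.06) and Rfc4 (0.09 ± 0.07) did not pass. The kinase Cdc7 went from 13.9, 13.9 and 13.2 to 17.5, 17.2 and 16.8 FPKM (0.31 ± 0.09, adjusted p = 0.026), while its activator Dbf4 measured 40.7, 40.5 and 40.8 FPKM with DL1 (0.06 ± 0.08, adjusted p = 0.572). Ccne1 rose to 26.1, 25.8 and 24.1 FPKM (0.27 ± 0.07, adjusted p = 0.0138). For Rfc2, Rfc5, Cdc7 and Ccne1 every DL1 library was above every control. The smallest changes that passed were those of Gins4, to 32.3, 31.9 and 32.03 FPKM (0.14 ± 0.05), Rpa1, to 71.3, 73.2 and 78.5 FPKM (0.18 ± 0.05), Tk1, to 67.4, 68.9 and 65.9 FPKM (0.18 ± 0.06), and Fen1, to 79.3, 77.8 and 83.5 FPKM (0.21 ± 0.07). Prim1, Gins3 and Rpa3 complete the 12. No MCM subunit passed, with changes from 0.03 for Mcm3 to 0.13 for Mcm7.

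Only Rfc2 and Rfc5 passed under all 15 alternatives in this comparison. The count was 3, 4 and 5 without replicates 1, 2 and 3 of control with DL1, 2 without control replicate 1 and 5 without control replicate 3; Cdc7 lost its call without any 1 of the 6 libraries, and Ccne1 without replicate 1 of either group. Median-ratio scaling left 7. Gins4 and Fen1 passed in 6 of the 15 alternatives, Prim1 in 8, Rpa1 in 9, and Tk1, Gins3 and Rfc3 in 10 each. Macrophage markers fell in 9 of 10 and neutrophil markers in 8 of 10 cases with DL1, where 12.3% of all genes fell and 14% rose. All 4 of the 8 T lineage markers that could be tested rose, at a median of 2.07, and the sum of the 8 went from between 7.48 and 11.8 FPKM to between 66.9 and 102 FPKM. Which cells carried these markers, and their part in the result, was not tested.

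Exons of 12 members overlap those of another gene in the GENCODE annotation, 11 of them with a protein-coding gene, and the library kit named in the labels does not mark strand, so shared reads cannot be told apart. They are Ccne2, Chaf1a, Fen1, Gins2, Lig1, Mcm7, Pole, Pole2, Rfc2, Rfc4, Rfc5 and Tk1. Among the 12 genes raised by DL1, Rfc2 overlaps Lat2, Rfc5 overlaps Wsb2, Fen1 overlaps Tmem258 and Tk1 overlaps Afmid, each on the opposite strand. Lat2, an adaptor of myeloid cells, moved against Rfc2, from 35.5 to 25.4 FPKM (-0.47 ± 0.09, adjusted p = 0.00153 by limma). Wsb2 (0.15 ± 0.11, adjusted p = 0.349) and Afmid (0.06 ± 0.09, adjusted p = 0.673) did not pass. After irradiation without DL1, Eif4a2, which overlaps Rfc4, went from 116 to 104 FPKM (-0.16 ± 0.06, adjusted p = 0.0636 by limma). Cops6, which overlaps Mcm7, did not pass either (-0.16 ± 0.07, adjusted p = 0.0946). Ubxn6 moved against Chaf1a (0.15 ± 0.05, adjusted p = 0.0404) and Wsb2 against Rfc5 (0.38 ± 0.11, adjusted p = 0.0198).

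In irradiated cultures DL1 raised 37 of the 43 genes and lowered none, against 24.4% of all genes that rose and 17% that fell. The median was 0.25 (all genes 0.06), 42 were above 0 (60.9% of all genes), and 37 were higher without overlap (28.7%). This comparison shares its irradiated libraries without DL1 with the first one in culture, including replicate 1; without that replicate 27 genes passed, at a median of 0.18. Ccne1 again changed most, from 12.7, 13.99 and 14.9 FPKM to 24.96, 23.6 and 21.4 FPKM (0.71 ± 0.07, adjusted p = 1.13e-05). Gins3 went from 6.26, 7.39 and 8.19 to 10.3, 10.5 and 10.2 FPKM (0.46 ± 0.08, adjusted p = 0.000669). Rfc5 went from 36.8, 43.9 and 42.9 to 54.98, 54.7 and 54.6 FPKM (0.41 ± 0.06, adjusted p = 0.000267). All 3 were higher in every DL1 library, as was Dbf4, from 25.6, 27.99 and 33.6 to 37.2, 38.2 and 40.4 FPKM (0.40 ± 0.08, adjusted p = 0.00132).

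By role, all 6 MCM subunits, 8 of 9 licensing and firing genes, 5 of 8 polymerase and primase genes, 7 of 8 clamp, loader and joining genes, 2 of 3 RPA genes and all 4 nucleotide, 3 chromatin and 2 cyclin E genes rose. Cdt1, Pola1, Pold1, Pold2, Rfc1 and Rpa2 did not pass. Pold2 was the single gene below 0, at 41.2, 43.2 and 49.99 against 42.3, 42.7 and 48.6 FPKM (-0.01 ± 0.08, adjusted p = 0.95). Cdt1 overlapped as well, at 34.2, 37.6 and 44.02 against 39.4, 41.9 and 45.3 FPKM (0.13 ± 0.08, adjusted p = 0.195). Its licensing partner Cdc6 went from 12.7, 15.2 and 14.3 to 17.1, 16.2 and 16.7 FPKM (0.23 ± 0.06, adjusted p = 0.00846); the difference between the 2 genes was not tested. Mcm2 went to 84.4, 86.01 and 86.6 FPKM (0.21 ± 0.06, adjusted p = 0.0183), Uhrf1 to 89.8, 87.1 and 89.1 FPKM (0.33 ± 0.05, adjusted p = 0.000412) and Rrm2 to 150.2, 152 and 144 FPKM (0.35 ± 0.06, adjusted p = 0.00101). Ccne2 went to 18.9, 15.7 and 16.7 FPKM (0.29 ± 0.07, adjusted p = 0.00551). In all 4 the DL1 libraries lay above those without DL1. The smallest changes that passed were those of Gins4 (0.14), Prim2 (0.15), Mcm3 (0.18) and Pcna (0.20). Pcna, at 315, 318 and 294 FPKM, lost its call in 8 of 15 alternatives: without replicate 1 or 2 of irradiated with DL1, without replicate 1 or 2 of irradiated cultures, with no filter, with median-ratio scaling, without the trend and in a fit of only 2 groups. Mcm2 lost it in 3, without replicate 3 of irradiated with DL1 or replicate 1 of irradiated cultures and in the fit of only 2 groups. Of the 37 calls, 24 held in every alternative; Mcm3 passed in 4 of 15, Mcm6 in 6, Gins4 in 7, Chaf1b in 9 and Prim2 in 10. All 10 macrophage and all 10 neutrophil markers fell with DL1 in irradiated cultures, where 17% of all genes fell and 24.4% rose. All 4 testable T lineage markers rose, at a median of 1.96, with sums of 63.2 to 97.5 FPKM against 6.92 to 12.3 without DL1. Of 4 megakaryocyte markers tested 2 fell and 1 rose, and of 8 mast cell and basophil markers 3 fell and 1 rose. Which cells carried these markers, and their part in the result, was not tested.

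Over the 4 cultured groups the order of means was nearly the same for all genes. Irradiated cultures without DL1 had the lowest mean of 42 genes, with Pold2 the exception, and control with DL1 the highest mean of 39. Control without DL1 and irradiated with DL1 shared the middle, with control the second lowest for 22 genes and irradiated with DL1 for 20. The summed FPKM of 2510 to 2696 in control and 2600 to 2624 in irradiated with DL1 overlapped, while those of 1959 to 2366 in irradiated and 2798 to 2831 in control with DL1 did not overlap with any other group. Pcna, for example, had means of 309 ± 18.02 FPKM in control and 309 ± 13.2 FPKM in irradiated with DL1, and Mcm7 of 166 ± 5.93 and 166 ± 5.31 FPKM.

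**Figure D5:**
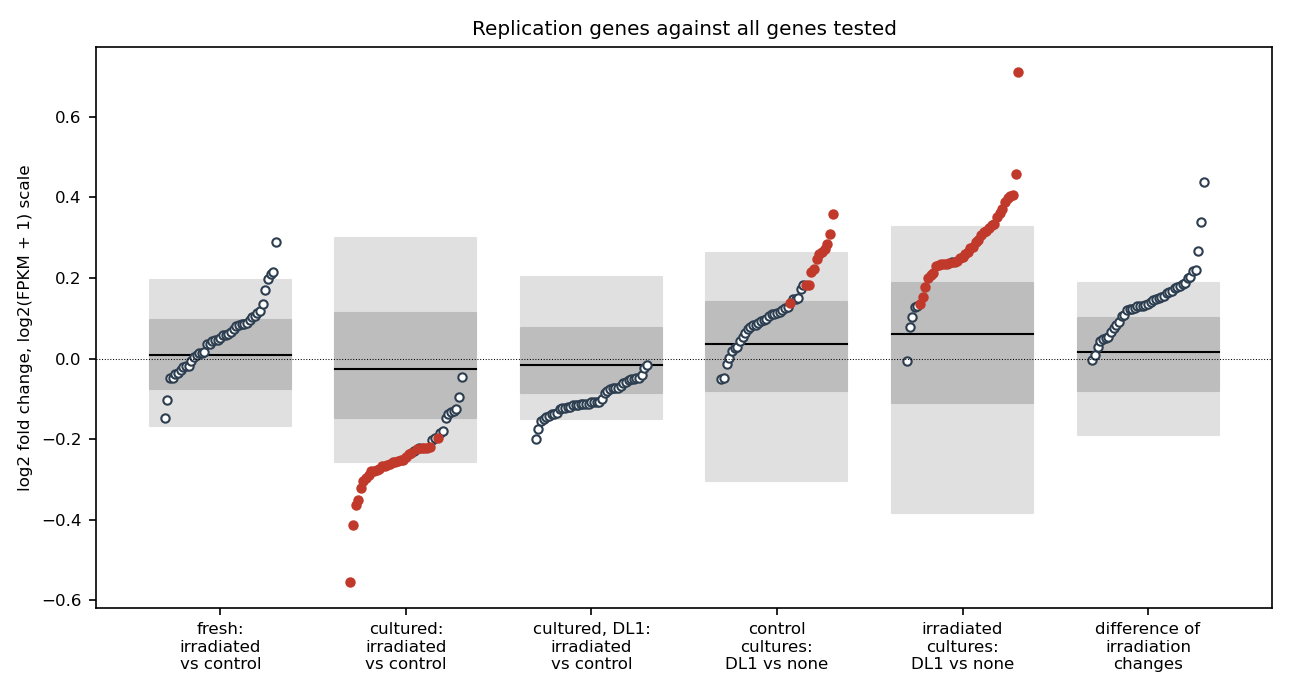
Log2 fold change of the 43 replication genes in the 6 comparisons, sorted within each (red, adjusted p under 0.05; open, not), over the middle of all genes tested (dark band quartiles, light band 10th to 90th percentile, line median). Irradiated cultures without DL1 show 30 red points, all below 0, and the effect of DL1 in irradiated cultures 37, all above 0.

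Medians were close for genes with and without E2F-type letters in the promoter window, with no test made. In irradiated cultures without DL1 the median was -0.25 for the 13 genes with the letters, of which 11 fell, and -0.24 for the 22 without, of which 14 fell. For DL1 in irradiated cultures the medians were 0.23 and 0.29. Of the E2F and Rb family, 5 of 13 genes fell (15.9% of all genes) and 2 rose (13.8%) after irradiation without DL1. The activator E2f2 fell (-0.36 ± 0.07, adjusted p = 0.00434) with E2f5 (-0.41 ± 0.10, adjusted p = 0.0091), and Rbl2, which encodes the Rb relative p130 of resting cells, rose (0.31 ± 0.07, adjusted p = 0.0061). In irradiated cultures DL1 raised 5 of 13 (24.4% of all genes), with E2f8 (0.34 ± 0.05, adjusted p = 0.000174), E2f2 (0.50 ± 0.07, adjusted p = 0.000185) and E2f5 (0.41 ± 0.10, adjusted p = 0.00508) first by p. In control cultures 3 rose (14% of all genes), E2f8 (0.21 ± 0.05, adjusted p = 0.00669), E2f3 (0.26 ± 0.07, adjusted p = 0.0175) and E2f7 (0.22 ± 0.07, adjusted p = 0.0276). With DL1, irradiation changed none (1 at an unadjusted p under 0.05, against 2231 of all 12011 genes). In fresh cells none passed either (2 at an unadjusted p under 0.05, against 885 of all 12890 genes).

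Other replication genes, 36 in number and not among the 43, were counted in the same way. After irradiation without DL1 23 of 36 fell (15.9% of all genes) and none rose, with a median of -0.24. The clamp-binding factor Pclaf (-0.54 ± 0.06, adjusted p = 0.000254), topoisomerase Top2a (-0.44 ± 0.06, adjusted p = 0.000658) and Dscc1 (-0.40 ± 0.07, adjusted p = 0.00272), part of a clamp loader for cohesion, had the smallest p. DL1 raised 24 of 36 in irradiated cultures (24.4% of all genes) with a median of 0.26, again with Pclaf (0.61 ± 0.06, adjusted p = 1.39e-05), Top2a (0.47 ± 0.06, adjusted p = 9.06e-05) and Dscc1 (0.40 ± 0.07, adjusted p = 0.00116) first. In control cultures it raised 4 (12 of the 43, and 14% of all genes), first Pole4 (0.29 ± 0.05, adjusted p = 0.0012), Pclaf (0.21 ± 0.06, adjusted p = 0.0278) and Tipin (0.23 ± 0.08, adjusted p = 0.0424). None passed in fresh cells (0 at an unadjusted p under 0.05), where 19 of 36 were above 0 (52.8% of all genes). None passed after irradiation with DL1 either (4 at an unadjusted p under 0.05, against 2231 of all 12011 genes).

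Mitosis genes, which act later in the cycle, were counted in the same way. In fresh cells none of 25 passed, but 22 were above 0 (52.8% of all genes) with a median of 0.13. An unadjusted p under 0.05 was found for 6 (885 of all 12890 genes), first Ccnb1 (0.35 ± 0.10, adjusted p = 0.457), Mki67 (0.27 ± 0.08, adjusted p = 0.483) and Cdc25c (0.27 ± 0.10, adjusted p = 0.6). In cultures without DL1 23 fell after irradiation (15.9% of all genes) with a median of -0.33, led by Mki67 (-0.52 ± 0.07, adjusted p = 0.000618), Bub1b (-0.48 ± 0.07, adjusted p = 0.000669) and Kif20a (-0.41 ± 0.06, adjusted p = 0.00107). DL1 raised 24 of 25 in irradiated cultures (24.4% of all genes) with a median of 0.36, first Kif23 (0.91 ± 0.07, adjusted p = 1.89e-06), Mki67 (0.73 ± 0.07, adjusted p = 9.49e-06) and Bub1b (0.60 ± 0.07, adjusted p = 2.89e-05). In control cultures it raised 4 of 25, near the 14% of all genes, first Kif23 (0.52 ± 0.07, adjusted p = 0.000168), Aurkb (0.24 ± 0.06, adjusted p = 0.0175) and Nuf2 (0.20 ± 0.06, adjusted p = 0.0296). After irradiation with DL1 none passed, also at an unadjusted p under 0.05 (2231 of all 12011 genes). The difference between the changes was above 0 for all 25 (54.6% of all genes) with a median of 0.28. None passed, and 18 had an unadjusted p under 0.05 (5.29% of all genes on that side).

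Among 14 cyclins and inhibitors of G1, Ccnd1, cyclin D1, fell after irradiation without DL1 (-0.78 ± 0.07, adjusted p = 0.000103) and rose with DL1 in irradiated (0.94 ± 0.07, adjusted p = 2.32e-06) and control cultures (0.38 ± 0.07, adjusted p = 0.00249). Cdkn2c, which encodes the CDK inhibitor p18, rose after irradiation in fresh cells (0.78 ± 0.07, adjusted p = 0.00742), from 11.99 ± 0.116 to 21.3 ± 0.327 FPKM, and in culture without DL1 (0.34 ± 0.08, adjusted p = 0.00818). Fresh Cdkn2c thus passed in a comparison in which none of the 43 replication genes did. Cdc25a, the phosphatase that releases cyclin E kinase, fell after irradiation without DL1 (-0.25 ± 0.05, adjusted p = 0.00497) and rose with DL1 in irradiated cultures (0.26 ± 0.05, adjusted p = 0.00169).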

How the data were processed

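The members, their roles and the gene lists were chosen with earlier results of these data known. The authors deposited 2 tables of FPKM values, 1 for fresh and 1 for cultured libraries. Per the submitters' processing notes, TopHat 1.4.1, Cufflinks 1.3.0 and Cuffdiff were used; the build they name, hg19, is human, and the annotation, filters and scaling are not given in the sources used here. RNA was extracted with a miRNeasy kit and libraries were made with a TruSeq RNA kit, per the labels' protocols. The column IR1DL1 was read as replicate 1 of irradiated with DL1.

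Tests used limma 3.58.1 (R 4.3.3) on log2(FPKM + 1) (mean-variance trend, mean FPKM of at least 1, Benjamini-Hochberg adjustment over 12890 fresh or 12011 cultured genes). The 4 cultured groups shared 1 fit and so 1 estimate of spread per gene, although their spread was unequal. Of rows repeating a name, 28 were dropped. The fit was checked on simulated data. Numbers were taken to pair 2 groups where all 3 same-numbered pairs deviated together from their group means with r over 0.1. This held only for irradiated cultures with and without DL1 (r from 0.14 to 0.35, against -0.25 to 0.04 for other pairs). Deviations within a group add up to 0, so these ranges are not independent of each other. Between control and irradiated cultures without DL1, libraries of unlike number reached r = 0.33. The labels do not say whether same-numbered cultures came from 1 mouse. No test was made across the tables, and relative depth was read from steps in low FPKM. Members were named where they passed with the 4 largest or 4 smallest changes of a comparison (the 4 smallest p where none passed), and always for Mcm2, Pcna, Cdc6, Cdt1, Ccne1, Ccne2, Rrm2 and Uhrf1; of other lists, the 3 smallest p. Further members were named to account for each role, after their values were seen. Alternatives tried were a pseudocount of 0.1 or 5, a mean of at least 5 or no filter, median-ratio scaling, ribosomal RNA-like rows removed, no trend, a replicate block, fits of 2 groups, and each library left out. Promoter letters came from RefSeq windows on GRCm38.p6, and exon overlaps from GENCODE.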

Additional observations from a re-analysis of the deposited data

Results flagged for a closer look

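For 3 genes every fresh irradiated pool lay above every fresh control pool, while every cultured irradiated library without DL1 lay below every cultured control. These 3 are 6.98% of the 43 genes, and 1.36% of the 11488 genes tested in both tables had the same pattern. In fresh cells alone, 4 of the 43 genes lay above without overlap, against 7.42% of all genes. In culture alone, 32 lay below, against 20.6% of all genes. With so many below in culture, the joint share is no separate evidence of a rise in fresh cells. Mcm10, which helps to activate the helicase, had log2 fold changes of 0.21 ± 0.08 in fresh and -0.30 ± 0.07 in cultured cells. Tk1, thymidine kinase, had 0.22 ± 0.09 and -0.30 ± 0.06, and the GINS subunit Gins1 had 0.17 ± 0.08 and -0.23 ± 0.08. Of these 6 changes, by limma only the falls of Mcm10 and Tk1 in culture passed the adjusted threshold. The difference between fresh and cultured cells was not tested, since the tables were normalized separately.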

How the results depend on the processing

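For DL1 in irradiated cultures every alternative called between 25 and 39 of the 43 genes, against 37. Fits of only 2 groups called 10 genes in place of 30 after irradiation without DL1 and 3 in place of 0 with DL1, by limma. Median-ratio scaling called 7 in place of 12 for DL1 in control cultures. Leaving out 1 library gave between 14 and 38 genes after irradiation without DL1, 0 throughout with DL1 and in fresh cells, 2 to 9 for DL1 in control cultures, 27 to 39 for DL1 in irradiated cultures and 0 to 2 for the difference between changes; the cause was not tested. Over the 43 genes and 6 comparisons, 79 changes passed; 36 of them passed in every alternative other than the paired fit of 2 groups, 43 missed the threshold in at least 1, and 0 changed sign. Of the 179 that did not pass, 22 passed in at least 1 alternative and 41 changed sign in at least 1, among them Rfc1 (-0.06 to 0.04) and Mcm3 (-0.01 to 0.06) for DL1 in control cultures, Pold2 (-0.07 to 0.07) for DL1 in irradiated cultures and Mcm2 (-0.01 to 0.18) in fresh cells. No scaling moved the median of all genes by over 0.1.

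With the replicate block 30, 0, 11, 37, 0 and 0 genes passed after irradiation without DL1, with DL1, for DL1 in control and in irradiated cultures, for the difference between changes and in fresh cells. Only irradiated cultures with and without DL1 met the rule for a pairing by number; a replicate block in a fit of these 2 groups alone, chosen after seeing the data, called 34 genes against 37, and Pcna lost its call (adjusted p = 0.0828 by limma).

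With 3 libraries a group, small changes cannot be told from none, and read depth enters only through relative steps.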
